A study of Homo sapiens with 9 samples.

Results

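Protein arginine methyltransferases (PRMTs) transfer methyl groups from S-adenosylmethionine to arginine side chains of histones, RNA-binding proteins and signalling proteins. Type I enzymes (PRMT1, PRMT2, PRMT3, CARM1, PRMT6 and PRMT8) form asymmetric dimethylarginine, type II enzymes (PRMT5 and PRMT9) form symmetric dimethylarginine, and the type III enzyme PRMT7 forms monomethylarginine only. In chromatin, asymmetric marks left by PRMT1 and CARM1 are known for gene activation, whereas PRMT6 dimethylates an arginine of the histone H3 tail beside the lysine of H3K4 and is known mainly for gene repression.

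The family was taken by symbol, as 9 genes, and 8 of them had values among the 34789 genes of the deposited table. PRMT8 was not analysed here. All 8 passed the filter of a mean of at least 1 FPKM over all samples and were tested among 12707 genes with limma, whose p-values were adjusted over all of them and called under 0.05. FPKM, a fragment count scaled by sequencing depth and transcript length, is a level per length. The length was that of all annotated exons for the other 7 members and that of 1 transcript for PRMT6, so its place among them depends on this choice, as given below with the order of levels. The members were chosen from the family as a whole with the fall of PRMT6 against siControl already known, so its values against siControl are given as a description, without a test.

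Polyadenylated RNA had been sequenced from H1299, an established line derived from non-small cell carcinoma of the human lung. Cells had been transfected with siFOXN3-1 (genotype label FOXN3 knockdown, 3 samples), siFOXN3-2 (the same genotype label, 3 samples) or the control siRNA siControl (genotype label WT, 3 samples), each at 50 nM with RNAiMAX, and the time from transfection to harvest is not given in the sources used here. All groups derive from 1 cell line. The labels leave unsaid whether the replicates were separate cultures, and the p-values below measure no more than the scatter among the 9 samples, part of which may be technical. By title all 3 samples of the second siRNA are siFOXN3-2, but in the treatment field replicate 2 carries siFOXN4 and replicate 3 carries siFOXN5, and results with siFOXN3-2 are therefore also given from replicate 1 alone, a choice made after seeing the data.

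Depth was 17.0 to 19.6 M fragments per sample. FOXN3, a forkhead transcriptional repressor and the gene targeted here (ENSG00000053254), had 1.28, 1.24 and 1.16 FPKM in the siFOXN3-1 samples and 0.858, 0.958 and 1.06 FPKM in the siFOXN3-2 samples, against 4.85, 5.25 and 5.00 FPKM with siControl. Every FOXN3 siRNA sample, including siFOXN3-2 replicates 2 and 3, lay below every siControl sample (log2 fold change -1.44 with siFOXN3-1 and -1.62 with siFOXN3-2, limma adjusted p = 1.42e-07 and 8.16e-08). The keratins KRT8 and KRT18 and the intermediate filament VIM were abundant in all samples, at 84.7 to 130 FPKM for KRT8, 163 to 239 FPKM for KRT18 and 443 to 572 FPKM for VIM. With siFOXN3-1 the log2 fold changes were 0.18, 0.33 and 0.21 for KRT8, KRT18 and VIM, all called higher, and with siFOXN3-2 they were -0.33, -0.09 and -0.02, with KRT8 called lower. The siFOXN3-1 calls were lost with quantile normalization, under which KRT18 and VIM were called lower with siFOXN3-2, and those of KRT8 and VIM were also lost without siControl replicate 2 and that of KRT8 without siControl replicate 3. Their part in the results was not tested. The other epithelial and lung lineage markers measured (EPCAM, CDH1, KRT19, NKX2-1 and SFTPB) fell under the filter, as did the markers of immune cells (PTPRC, CD3E, CD14), fibroblasts (COL1A1, DCN) and endothelium (PECAM1, CDH5, VWF). SFTPC was not analysed here. In bulk samples such as these, fewer cells of a type and less RNA per cell cannot be told apart.

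The upstream sequences of 4 members are shown because FOXN3 is a DNA-binding repressor: PRMT6, PRMT7 and PRMT2, which were lower with both siRNAs, and PRMT1, the most abundant member, which passed the test with neither. PRMT3 and PRMT9 also fell with both siRNAs, with calls that depended on the settings, and are not shown. Each run holds the 250 bases before the annotated start, 5′ to 3′ on the gene's strand, from RefSeq on GRCh38.p14, where all 9 symbols matched. FOXN3 is known to bind a forkhead motif (GTAAACA) and a shorter motif (GACGC), both searched on both strands and neither overlapping the other in letters. Capitals mark GACGC or its reverse complement GCGTC.
PRMT6, chr1:107056424-107056673, plus strand: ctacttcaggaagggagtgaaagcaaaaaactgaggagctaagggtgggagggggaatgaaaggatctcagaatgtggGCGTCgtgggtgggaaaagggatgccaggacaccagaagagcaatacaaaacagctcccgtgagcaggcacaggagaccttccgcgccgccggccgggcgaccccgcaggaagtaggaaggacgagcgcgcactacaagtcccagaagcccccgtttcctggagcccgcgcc
PRMT7, chr16:68310769-68311018, plus strand: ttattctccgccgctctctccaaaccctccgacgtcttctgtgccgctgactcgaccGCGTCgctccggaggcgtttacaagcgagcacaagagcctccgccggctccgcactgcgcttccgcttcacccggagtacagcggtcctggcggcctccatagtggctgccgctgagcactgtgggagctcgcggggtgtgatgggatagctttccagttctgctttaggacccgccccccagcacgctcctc
PRMT2, chr21:46635424-46635673, plus strand: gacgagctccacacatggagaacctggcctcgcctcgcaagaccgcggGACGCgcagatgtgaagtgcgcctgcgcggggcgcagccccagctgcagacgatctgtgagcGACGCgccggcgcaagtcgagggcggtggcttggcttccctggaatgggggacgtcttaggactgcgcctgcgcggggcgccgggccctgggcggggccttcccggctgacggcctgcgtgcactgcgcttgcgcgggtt
PRMT1, chr19:49677021-49677270, plus strand: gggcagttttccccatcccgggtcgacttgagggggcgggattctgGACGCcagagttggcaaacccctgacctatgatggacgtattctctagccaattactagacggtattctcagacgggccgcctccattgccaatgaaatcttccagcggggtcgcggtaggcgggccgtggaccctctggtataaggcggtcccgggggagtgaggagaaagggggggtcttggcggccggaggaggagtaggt

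GTAAACA was found in none of the windows of the 9 members, and 2.98% of 35116 RefSeq promoter windows of this length held it. In the windows shown, GACGC was found once in PRMT6, once in PRMT7, 2 times in PRMT2 and once in PRMT1, and 30.0% of all windows held it. Before a second annotated start of PRMT7 there was also 1 match. PRMT5 and PRMT9 held 1 match each, PRMT3 held none, CARM1 held none before one annotated start and 2 before the other, and PRMT8 held none before one and 1 before the other. A match describes letters in this window and is not a binding site. The windows shown were 60.4% (PRMT6), 64.8% (PRMT7), 72% (PRMT2) and 61.2% (PRMT1) G or C. The share over all windows was not matched for G and C content, so no enrichment is read from it. Members lower with both siRNAs included windows with GACGC and the PRMT3 window without it. Members that passed the test with neither also included windows with it.

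**Figure D1:**
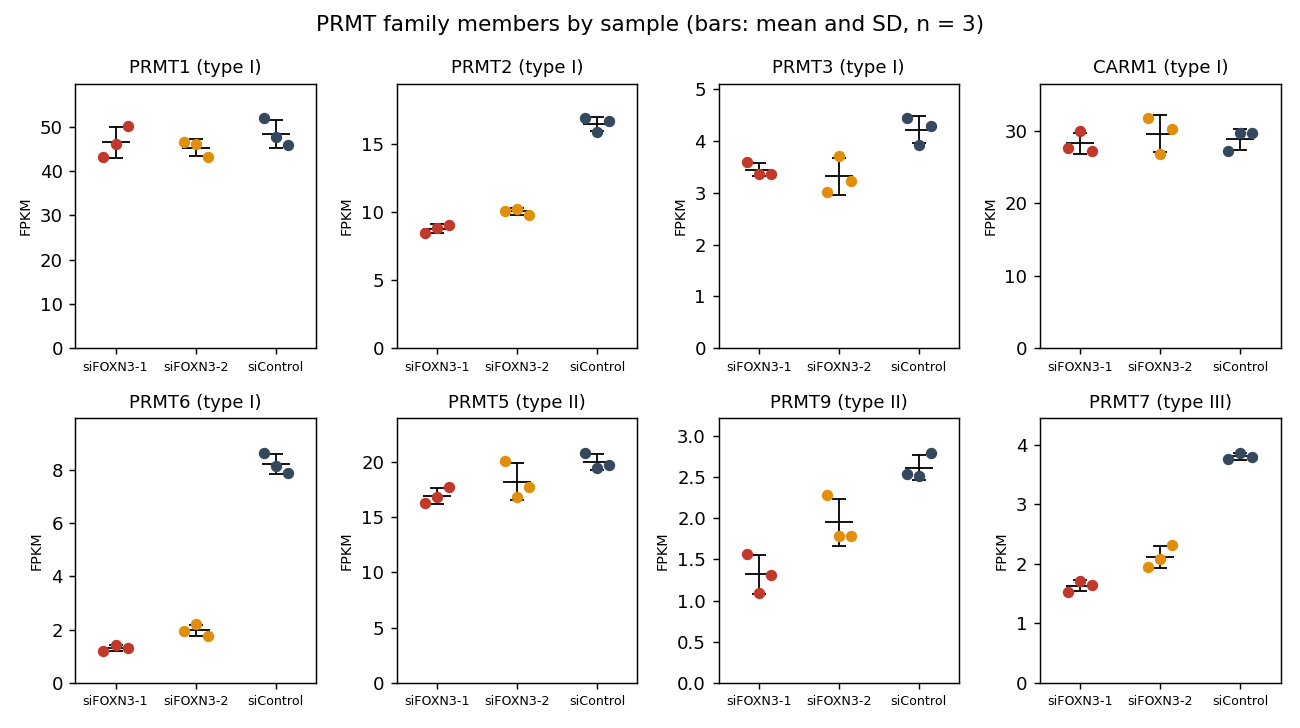
FPKM of the 8 PRMT genes in each sample (points) with the group mean and SD (bars, n = 3), siFOXN3-1 and siFOXN3-2 left of siControl. PRMT6, PRMT2, PRMT7, PRMT9 and, by a small margin, PRMT3 lie below siControl in all 6 FOXN3 siRNA samples, whereas PRMT1 and CARM1 overlap between groups. Samples did not overlap those of siControl for 71.1% of all tested genes with siFOXN3-1 and 68.2% with siFOXN3-2.

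PRMT6, a nuclear type I enzyme, moved farthest of the family. It had 1.18, 1.40 and 1.31 FPKM in the siFOXN3-1 samples, and 1.93, 2.20 and 1.78 FPKM in the siFOXN3-2 samples, against 8.63, 8.14 and 7.87 FPKM in the siControl samples. All FOXN3 siRNA samples were far below the controls, and the siFOXN3-1 samples were below the siFOXN3-2 samples. The means were 1.298 ± 0.113 FPKM with siFOXN3-1 and 1.968 ± 0.212 FPKM with siFOXN3-2, against 8.215 ± 0.387 FPKM with siControl (SD, n = 3 each), which left 15.8% of the siControl level with siFOXN3-1 and 24.0% with siFOXN3-2.

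On the log2(FPKM + 1) scale, which understates changes of low genes, these differences of PRMT6 were -2.004 with siFOXN3-1 and -1.64 with siFOXN3-2. They were the values at rank 6 and rank 29 from the lowest among 12707 genes. With a pseudocount of 0.1 FPKM they were -2.57 and -2.01, and siFOXN3-2 replicate 1 alone gave -1.65. These values picked the gene out and carry no test.

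Between the siRNAs, PRMT6 was higher with siFOXN3-2 than with siFOXN3-1, at 151.6% of the siFOXN3-1 level (log2 fold change 0.37, SE 0.074, limma adjusted p = 0.00421). This contrast was not named in the choice of members. It uses the FOXN3 siRNA samples whose low PRMT6 values were already known, so its p-value may not be independent of that choice. The 3 siFOXN3-2 samples did not overlap the 3 siFOXN3-1 samples. The difference passed the test under all 14 other settings, with log2 fold changes of 0.31 to 0.60 and adjusted p of 0.00244 to 0.0344. For FOXN3 itself the same contrast was not called.

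PRMT6 (ENSG00000198890, GRCh38 chromosome 1, 107056679 to 107067636, plus strand) is the one member whose longest coding transcript is a single exon, against 10 to 17 coding exons in the others. Its FPKM values were whole reads only over that transcript of 2616 bases, not over the 4335 bases of all its annotated exons. On this basis the values stood for 59, 67 and 60 reads with siFOXN3-1, and 86, 106 and 84 reads with siFOXN3-2, against 422, 409 and 403 reads with siControl. Counting error alone was 12.7% of the mean with siFOXN3-1, 10.4% with siFOXN3-2 and 4.93% with siControl, close to the replicate coefficients of variation of 8.70%, 10.8% and 4.71%. No other gene overlaps PRMT6 exons. Of the annotated genes within 500 kb, those with values were NTNG1, at 0.00593 FPKM in its highest sample, and the processed pseudogene AC114491.1, at 1.45 FPKM in its highest sample.

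PRMT2, a type I enzyme of weak activity known as a coactivator of nuclear receptors (ENSG00000160310, chromosome 21, 46635167 to 46665124, plus strand), had 8.42, 8.85 and 9.05 FPKM after siFOXN3-1 and 10.07, 10.24 and 9.80 FPKM after siFOXN3-2, against 16.90, 15.90 and 16.67 FPKM with siControl. The 3 groups did not overlap. Its mean fell to 8.77 ± 0.32 FPKM with siFOXN3-1 and to 10.04 ± 0.223 FPKM with siFOXN3-2, against 16.49 ± 0.522 FPKM with siControl (SD, n = 3 each). This left 53.2% of the control level with siFOXN3-1 and 60.9% with siFOXN3-2. The log2 fold changes were -0.84 (SE 0.051, limma adjusted p = 5.72e-07) and -0.66 (adjusted p = 2.69e-06), and they passed the test under every other setting run.

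PRMT1, the main source of asymmetric dimethylarginine in most cells (ENSG00000126457, chromosome 19), was the most abundant member. It had 43.20, 46.22 and 50.21 FPKM after siFOXN3-1 and 46.66, 46.16 and 43.13 FPKM after siFOXN3-2, against 52.01, 47.65 and 45.84 FPKM with siControl. The 3 groups overlapped. No change was called, with log2 fold changes of -0.06 (95% interval -0.21 to 0.10, limma adjusted p = 0.478) and -0.09 (95% interval -0.25 to 0.06, adjusted p = 0.257). The sign turned with median ratio scaling, and quantile normalization called a fall with siFOXN3-2 (log2 fold change -0.19, adjusted p = 0.0165).

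CARM1, a coactivator that methylates histone H3 and RNA-processing proteins (ENSG00000142453, chromosome 19), had 27.65, 29.90 and 27.24 FPKM after siFOXN3-1 and 31.71, 26.75 and 30.21 FPKM after siFOXN3-2, against 27.12, 29.63 and 29.62 FPKM with siControl. The samples of all groups were mixed. The log2 fold changes were -0.03 (95% interval -0.18 to 0.13, limma adjusted p = 0.768) and 0.03 (95% interval -0.12 to 0.19, adjusted p = 0.692), and both signs turned under one of the other scalings. Of its exon bases, 19.9% overlap YIPF2, which runs on the opposite strand, and the libraries carried no strand information. YIPF2 averaged 18.1 FPKM with siFOXN3-1, 21.9 FPKM with siFOXN3-2 and 17.7 FPKM with siControl, and its part in the CARM1 values was not tested.

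PRMT3, a cytosolic type I enzyme known for methylating the ribosomal protein RPS2 (ENSG00000185238, chromosome 11), had 3.60, 3.37 and 3.37 FPKM after siFOXN3-1 and 3.02, 3.72 and 3.23 FPKM after siFOXN3-2, against 4.44, 3.93 and 4.30 FPKM with siControl. Every FOXN3 siRNA sample was below every control, by a small margin. It fell to 81.7% of the siControl level with siFOXN3-1 (log2 fold change -0.23, limma adjusted p = 0.0192) and to 78.7% with siFOXN3-2 (log2 fold change -0.27, adjusted p = 0.00833). Both calls were lost with median ratio scaling and with quantile normalization, under which the siFOXN3-1 value turned to 0.02. The siFOXN3-1 call was also lost without siControl replicate 1, siControl replicate 3, siFOXN3-1 replicate 2 or siFOXN3-1 replicate 3.

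PRMT5, the main type II enzyme and the catalytic subunit of the methylosome (ENSG00000100462, chromosome 14), had 16.28, 16.85 and 17.72 FPKM after siFOXN3-1 and 20.06, 16.82 and 17.78 FPKM after siFOXN3-2, against 20.82, 19.41 and 19.70 FPKM with siControl. The siFOXN3-1 samples lay below the controls, and siFOXN3-2 replicate 1 lay among them. PRMT5 fell with siFOXN3-1 (log2 fold change -0.22, SE 0.068, limma adjusted p = 0.0144) and did not pass the test with siFOXN3-2 (-0.13, 95% interval -0.28 to 0.02, adjusted p = 0.122). The siFOXN3-1 call was lost with both other scalings and without siControl replicate 1, and the siFOXN3-2 value was 0.01 from replicate 1 alone, while without siFOXN3-2 replicate 1 it was -0.20 and passed the test (adjusted p = 0.0188). PRMT5-AS1 on the opposite strand overlaps 27.1% of PRMT5 exon bases, and its group means were 0.03 to 0.06 FPKM.

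PRMT9, the type II enzyme known for methylating the splicing factor SF3B2 (ENSG00000164169, chromosome 4), had 1.56, 1.09 and 1.31 FPKM after siFOXN3-1 and 2.28, 1.78 and 1.79 FPKM after siFOXN3-2, against 2.54, 2.51 and 2.80 FPKM with siControl. The 3 groups did not overlap. It fell to 50.4% of the siControl level with siFOXN3-1 (log2 fold change -0.64, SE 0.098, limma adjusted p = 2.37e-04) and to 74.5% with siFOXN3-2 (log2 fold change -0.30, adjusted p = 0.0225). The siFOXN3-2 call was lost in 7 of 14 other settings, among them without siFOXN3-2 replicate 2, siFOXN3-2 replicate 3 or siControl replicate 3, and from siFOXN3-2 replicate 1 alone (-0.14, adjusted p = 0.401). PRMT9 rested on 80 to 220 reads per sample.

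PRMT7, the type III enzyme (ENSG00000132600, chromosome 16, 68310974 to 68358563, plus strand), had 1.53, 1.72 and 1.64 FPKM after siFOXN3-1 and 1.95, 2.07 and 2.31 FPKM after siFOXN3-2, against 3.75, 3.86 and 3.80 FPKM with siControl. The 3 groups did not overlap. Its mean fell to 1.63 ± 0.0928 FPKM with siFOXN3-1 and to 2.112 ± 0.182 FPKM with siFOXN3-2, against 3.803 ± 0.0547 FPKM with siControl (SD, n = 3 each). This left 42.9% of the control level with siFOXN3-1 and 55.5% with siFOXN3-2. The log2 fold changes were -0.87 (SE 0.068, limma adjusted p = 2.79e-06) and -0.63 (adjusted p = 2.58e-05), and they passed the test under every other setting in which the gene was tested. The gene lies under a mean of 5 FPKM, as do PRMT3, PRMT6 and PRMT9.

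**Figure D2:**
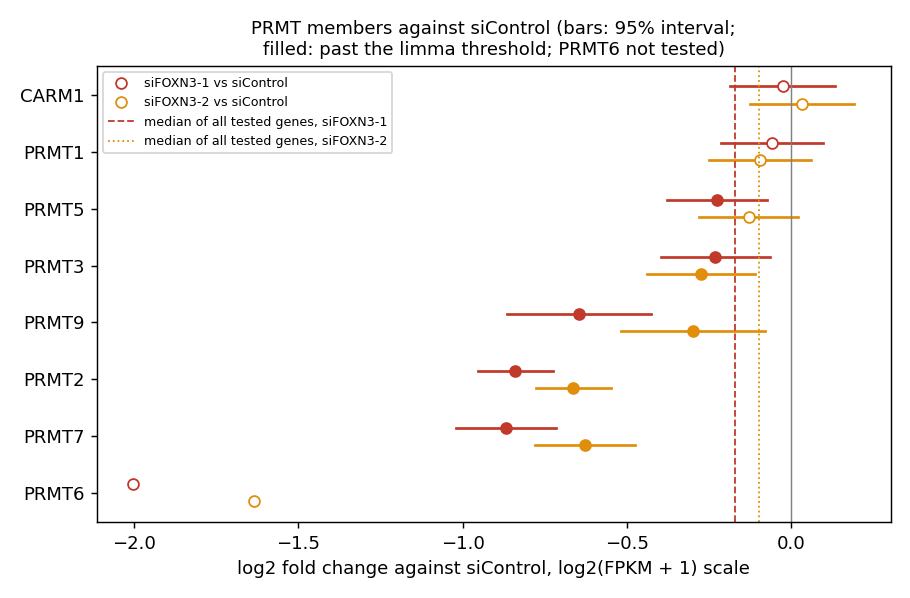
Log2 fold changes against siControl on the log2(FPKM + 1) scale for siFOXN3-1 (upper point of each pair) and siFOXN3-2 (lower point), with 95% intervals (bars). Filled points passed the limma threshold, PRMT6 was not tested and has no interval, and the vertical lines mark the medians of all tested genes at -0.17 and -0.10.

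Leaving PRMT6 aside, 5 of the 7 other members fell and 0 rose with siFOXN3-1, where 45.3% of all tested genes were called lower, 19.3% higher and 64.7% in either direction. With siFOXN3-2, 4 of 7 fell and 0 rose, against 39.2% of all tested genes called lower, 24.1% higher and 63.3% in either direction, and from replicate 1 alone 3 of the 7 fell. The samples of the FOXN3 siRNA and of siControl did not overlap for 5 of the 7 with siFOXN3-1 and for 4 of the 7 with siFOXN3-2, as was so for 71.1% and 68.2% of all tested genes. Counts over 7 genes are coarse beside such shares, and nothing particular to the family is read from them. The median log2 fold change of the 7 members was -0.23 with siFOXN3-1 and -0.27 with siFOXN3-2, against -0.17 with siFOXN3-1 and -0.10 with siFOXN3-2 over all tested genes.

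Because most genes were shifted, the scale matters for the smaller falls. Scaling by median ratios brought the median of all genes near 0, a shift of about the size of the medians just given, and the genes called with siFOXN3-1 then split into 3979 higher and 3939 lower, against 2458 higher and 5762 lower as reported. With siFOXN3-2 they split into 3912 higher and 3948 lower, against 3066 higher and 4983 lower. Relative to that shift, PRMT2 (-0.65 with siFOXN3-1 and -0.56 with siFOXN3-2) and PRMT7 (-0.72 with siFOXN3-1 and -0.54 with siFOXN3-2) fell with both siRNAs, PRMT9 fell with siFOXN3-1 (-0.51), and CARM1 was called higher with siFOXN3-1 (0.18, limma adjusted p = 0.0433). PRMT6 had -1.85 with siFOXN3-1 under this scaling.

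The contrast of siFOXN3-2 with siFOXN3-1 was not named in the choice of members. It uses the FOXN3 siRNA samples whose low PRMT6 values were already known. In it 4 of 8 members were higher (PRMT6, PRMT9, PRMT7 and PRMT2) and 0 were lower, where 25.4% of all tested genes were called higher, 10.7% lower and 36.1% in either direction. The same 4 had no overlap between the siRNAs, as had 46% of all tested genes. Besides PRMT6 (0.37), the log2 fold changes were 0.35 for PRMT9 (limma adjusted p = 0.0206), 0.24 for PRMT7 (adjusted p = 0.0204) and 0.18 for PRMT2 (adjusted p = 0.0229), against a median of 0.08 over all tested genes. PRMT6 and PRMT9 passed the test under both other scalings and from siFOXN3-2 replicate 1 alone, whereas PRMT7 and PRMT2 did not. Leaving out 1 sample also ended single calls, that of PRMT9 without siFOXN3-1 replicate 2 or siFOXN3-2 replicate 1, that of PRMT7 without siFOXN3-1 replicate 1 or siFOXN3-2 replicate 3, and that of PRMT2 without siFOXN3-1 replicate 1 or 2. A fit of only these groups also ended the calls of PRMT7 (adjusted p = 0.0597) and PRMT2 (adjusted p = 0.0645). The PRMT9 call was lost with no filter as well, under which 3 members were called higher. PRMT5 (0.10), CARM1 (0.06), PRMT3 (-0.04) and PRMT1 (-0.04) did not pass the test, with adjusted p of 0.305, 0.541, 0.676 and 0.717.

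Summed over the family, the FPKM of the 8 genes was 108.2 ± 4.33 with siFOXN3-1 and 112.5 ± 4.51 with siFOXN3-2, against 132.6 ± 3.13 with siControl (SD, n = 3 each). PRMT6 held 1.47 ± 0.0855% of the type I sum with siFOXN3-1 and 2.18 ± 0.246% with siFOXN3-2, against 7.73 ± 0.184% with siControl. PRMT1 held 43.0 ± 1.68% of the family sum with siFOXN3-1 and 40.3 ± 1.54% with siFOXN3-2, against 36.5 ± 1.55% with siControl. PRMT2 held 8.11 ± 0.0323% with siFOXN3-1 and 8.93 ± 0.389% with siFOXN3-2, against 12.4 ± 0.316% with siControl. These sums describe transcripts and not enzyme amounts.

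By level, the order with siControl was PRMT1, CARM1, PRMT5, PRMT2, PRMT6, PRMT3, PRMT7 and PRMT9, and no neighbours in that order overlapped over the 3 samples. With siFOXN3-1 the first 4 kept their places, PRMT3 came next, and PRMT7, PRMT9 and PRMT6 followed with overlapping neighbours at group means of 1.63, 1.32 and 1.298 FPKM. With siFOXN3-2 the last places went to PRMT7, PRMT6 and PRMT9 at 2.112, 1.968 and 1.95 FPKM, again with overlap between neighbours. PRMT6 thus stood at place 5 of 8 with siControl and among the 3 lowest with either FOXN3 siRNA. If its reads are divided by all its annotated exon bases, a choice made after seeing the data, PRMT6 averaged 0.783 FPKM with siFOXN3-1 and 1.19 FPKM with siFOXN3-2, against 4.96 FPKM with siControl. Its place was then 8 with either FOXN3 siRNA, with no overlap with another member, and 5 with siControl, and its share of the type I sum was 0.891% with siFOXN3-1 and 1.33% with siFOXN3-2, against 4.81% with siControl. This only rescales the reads over 1 transcript, and reads on its other annotated exons may be missing from them. These values may therefore understate PRMT6 and are not on the same basis as those of the other members.

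Genes around arginine methylation were read from lists of partners, readers, cofactor metabolism, other enzymes and substrates, with 2 further lists tied to PRMT6. Of their genes, 83 were tested. With siFOXN3-1 23 rose and 32 fell (median -0.11 on the log2 scale), and with siFOXN3-2 25 rose and 29 fell (median -0.06). Over all tested genes the shares were 19.3% higher and 45.3% lower with siFOXN3-1, and 24.1% higher and 39.2% lower with siFOXN3-2. The counts of each list below stand beside these same shares, and nothing particular to a list is read from its counts. Median ratio scaling turned the split of the 83 genes to 34 higher and 18 lower with siFOXN3-1 and to 32 higher and 25 lower with siFOXN3-2.

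Among 7 tested partners and adaptors, 4 rose (BTG1, BTG2, RIOK1 and CNOT7) and 1 fell (WDR77) with each siRNA, with medians of 0.34 (siFOXN3-1) and 0.33 (siFOXN3-2). BTG1, an antiproliferative protein that binds PRMT1, had 49.7, 49.7 and 48.8 FPKM after siFOXN3-1 and 50.8, 59.8 and 52.2 FPKM after siFOXN3-2, against 13.3, 12.8 and 12.7 FPKM with siControl. All FOXN3 siRNA samples were far above the controls (log2 fold change 1.86 with siFOXN3-1 and 1.99 with siFOXN3-2, limma adjusted p = 1.2e-08 and 1.05e-08). Its relative BTG2, another PRMT1 partner, averaged 1.98 FPKM with siFOXN3-1 and 1.69 FPKM with siFOXN3-2, against 0.925 FPKM with siControl (0.64 with siFOXN3-1 and 0.49 with siFOXN3-2). With a siControl mean under the filter of 1 FPKM, BTG2 was tested only because of the FOXN3 siRNA samples, where it is high. Its place among the 4 that rose is thus not independent of the filter. EPB41L3, which is known to restrain PRMT3 and PRMT5, lay under the filter.

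PRMT5 works with WDR77, its obligate methylosome subunit, and with RIOK1, a kinase that recruits other substrates in place of pICln, the product of CLNS1A. WDR77 had 6.02, 6.63 and 6.51 FPKM after siFOXN3-1 and 8.49, 8.41 and 8.72 FPKM after siFOXN3-2, against 12.6, 10.9 and 10.6 FPKM with siControl. It fell with both siRNAs (log2 fold change -0.74 with siFOXN3-1 and -0.37 with siFOXN3-2, limma adjusted p = 7.82e-06 and 8.46e-04). RIOK1 averaged 10.58 FPKM with siFOXN3-1 and 12.19 FPKM with siFOXN3-2, against 7.88 FPKM with siControl, and rose with both (0.38 with siFOXN3-1 and 0.57 with siFOXN3-2, adjusted p = 1.05e-04 and 7.80e-06). RIOK1 and WDR77 thus moved in opposite directions, while PRMT5 itself moved by 0.22 or less on this scale. This describes RIOK1 and WDR77 only and not the other adaptors of PRMT5. WDR77 shares 24.0% of its exon bases with other genes on its strand and 12.5% with genes on the opposite strand. The part of these genes in its values was not tested.

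Among 7 tested readers, whose Tudor domains bind methylarginine, 2 rose and 2 fell with each siRNA, with medians of -0.09 (siFOXN3-1) and 0.18 (siFOXN3-2). SMNDC1, a splicing factor, had 20.4, 19.0 and 18.2 FPKM after siFOXN3-1 and 19.8, 25.8 and 22.6 FPKM after siFOXN3-2, against 9.64, 8.55 and 10.1 FPKM with siControl, and rose with both (log2 fold change 0.95 with siFOXN3-1 and 1.18 with siFOXN3-2, limma adjusted p = 1.16e-05 and 3.18e-06). SND1 rose by little (0.16 with siFOXN3-1 and 0.18 with siFOXN3-2), and these calls were lost without siControl replicate 1 or 3. The siFOXN3-1 call was also lost whichever siFOXN3-1 replicate was left out, and the siFOXN3-2 call without siFOXN3-2 replicate 1 or 3 and with quantile normalization. TDRD7 (-0.37 with siFOXN3-1 and -0.73 with siFOXN3-2) and TDRD9 (-0.44 with siFOXN3-1 and -0.56 with siFOXN3-2), known from germ cells, fell. SMN1 has a near-identical copy, SMN2, so its values of 5.99 to 21.6 FPKM, scattered within every group, are uncertain. TDRD1 was not analysed here.

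The S-adenosylmethionine cycle supplies the methyl donor of all PRMTs. Of its 8 tested genes, 1 rose and 4 fell with siFOXN3-1, and 2 rose and 4 fell with siFOXN3-2, with medians of -0.08 (siFOXN3-1) and -0.11 (siFOXN3-2). MAT2A, the catalytic subunit of the synthetase outside the liver, had 31.9, 30.4 and 26.9 FPKM after siFOXN3-1 and 28.1, 27.1 and 32.5 FPKM after siFOXN3-2, against 67.6, 70.7 and 71.8 FPKM with siControl. All FOXN3 siRNA samples were below the controls, and those of the 2 siRNAs overlapped (log2 fold change -1.21 with siFOXN3-1 and -1.24 with siFOXN3-2, limma adjusted p = 9.44e-07 and 9.16e-07).

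MAT2B, the regulatory subunit of the same synthetase, differed between the siRNAs. It averaged 14.2 ± 0.941 FPKM with siFOXN3-1 and 22.0 ± 1.64 FPKM with siFOXN3-2, against 16.8 ± 0.462 FPKM with siControl, a fall with siFOXN3-1 (-0.23, limma adjusted p = 0.0114) and a rise with siFOXN3-2 (0.37, adjusted p = 7.85e-04). The fall did not pass the test under either other scaling, and the direct contrast of siFOXN3-2 with siFOXN3-1 was 0.60 (adjusted p = 1.85e-04). MTR, methionine synthase, fell with both (-0.37 with siFOXN3-1 and -0.63 with siFOXN3-2), and AHCYL2, a relative of adenosylhomocysteinase, fell with siFOXN3-2 (-0.38) and had 0.07 with siFOXN3-1. The siFOXN3-1 call of MTR was lost under both other scalings. MAT1A, BHMT, GNMT and NNMT lay under the filter.

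Among 5 tested enzymes that also act on methylarginine, 2 rose and 2 fell with siFOXN3-1, and 3 rose and 1 fell with siFOXN3-2, with medians of -0.06 (siFOXN3-1) and 0.34 (siFOXN3-2). DDAH1, which degrades free asymmetric dimethylarginine, had 25.3, 22.1 and 23.1 FPKM after siFOXN3-1 and 26.3, 26.1 and 29.4 FPKM after siFOXN3-2, against 11.2, 10.9 and 10.3 FPKM with siControl. JMJD6, a lysyl hydroxylase also reported as an arginine demethylase, had 12.3, 13.6 and 14.1 FPKM after siFOXN3-1 and 16.8, 16.5 and 15.3 FPKM after siFOXN3-2, against 7.08, 6.25 and 6.97 FPKM with siControl. Neither gene overlapped between FOXN3 siRNA and control samples.

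DDAH1 rose by 1.05 with siFOXN3-1 and 1.26 with siFOXN3-2 on the log2 scale (limma adjusted p = 8.98e-07 and 3.23e-07) and JMJD6 by 0.89 with siFOXN3-1 and 1.14 with siFOXN3-2 (adjusted p = 2.56e-06 and 5.83e-07). METTL23, a histone arginine methyltransferase outside the PRMT family, fell (-0.29 with siFOXN3-1, lost under median ratio scaling, and -0.37 with siFOXN3-2). NDUFAF7, a mitochondrial arginine methyltransferase of complex I assembly, rose with siFOXN3-2 (0.34) and had -0.06 with siFOXN3-1. The peptidyl arginine deiminases PADI1, PADI2, PADI3 and PADI4 lay under the filter, and PADI6 was not analysed here.

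All 36 substrates on the list were tested, and 9 rose and 14 fell with siFOXN3-1, while 10 rose and 12 fell with siFOXN3-2, with medians of -0.07 (siFOXN3-1) and -0.08 (siFOXN3-2). CIRBP, a cold-inducible RNA-binding protein, averaged 13.8 ± 0.313 FPKM with siFOXN3-1 and 13.6 ± 0.436 FPKM with siFOXN3-2, against 23.7 ± 2.02 FPKM with siControl (SD, n = 3 each), and fell with both (log2 fold change -0.73 with siFOXN3-1 and -0.75 with siFOXN3-2). The RNA-binding proteins EWSR1 and TAF15, named after their values were seen, fell with both as well. No substrate that rose is named here, although 9 rose with siFOXN3-1 and 10 with siFOXN3-2. The named substrates therefore do not stand for the list. BRCA1, the repair scaffold that the series title names, averaged 1.71 FPKM with siFOXN3-1 and 1.66 FPKM with siFOXN3-2, against 4.21 FPKM with siControl (-0.95 with siFOXN3-1 and -0.97 with siFOXN3-2), and FEN1, a flap endonuclease methylated by PRMT5, fell too (-0.88 with siFOXN3-1 and -0.46 with siFOXN3-2).

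HNRNPA2B1, an RNA-binding substrate of type I enzymes, was the substrate that differed most between the siRNAs among those named. It had 172, 155 and 158 FPKM after siFOXN3-1 and 72.7, 84.5 and 80.0 FPKM after siFOXN3-2, against 155, 142 and 158 FPKM with siControl. The siFOXN3-2 samples stood apart from all others, with a log2 fold change of -0.93 against siControl (limma adjusted p = 2.62e-06) and of -1.02 against siFOXN3-1 (adjusted p = 2.14e-05). With siFOXN3-1 the value was 0.09 (adjusted p = 0.275), which turned to -0.12 with quantile normalization.

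**Figure D3:**
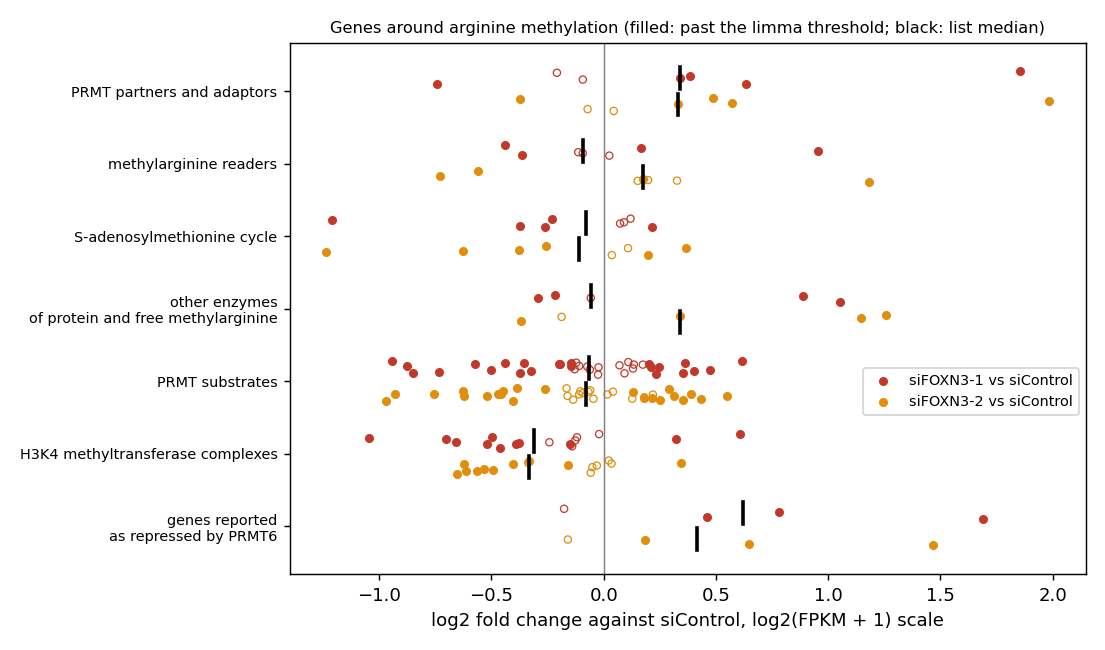
Log2 fold changes against siControl for each tested gene of 7 lists, siFOXN3-1 above siFOXN3-2 within a list. Filled points passed the limma threshold and black bars mark list medians, such as 0.34 and 0.33 for partners and adaptors and -0.31 and -0.33 for H3K4 methyltransferase complexes.

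The mark made by PRMT6 on histone H3 is known to hinder the H3K4 methyltransferase complexes. Of their 16 tested genes, 2 rose and 9 fell with siFOXN3-1, and 1 rose and 9 fell with siFOXN3-2, with medians of -0.31 (siFOXN3-1) and -0.33 (siFOXN3-2). Over all tested genes 45.3% were lower with siFOXN3-1 and 39.2% with siFOXN3-2, and nothing particular to these complexes is read from the counts. The fallen genes with both siRNAs included the shared core subunits WDR5 (-0.50 with siFOXN3-1 and -0.53 with siFOXN3-2) and ASH2L (-0.52 with siFOXN3-1 and -0.40 with siFOXN3-2) and the menin gene MEN1 (-1.05 with siFOXN3-1 and -0.61 with siFOXN3-2, limma adjusted p = 5.20e-06 and 2.11e-04). MEN1 had 6.21, 6.51 and 6.76 FPKM after siFOXN3-1 and 10.5, 7.77 and 9.26 FPKM after siFOXN3-2, against 14.1, 15.3 and 14.0 FPKM with siControl. KDM6A, a demethylase of H3K27 carried by some of these complexes, rose with both (0.61 with siFOXN3-1 and 0.34 with siFOXN3-2).

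Of the genes that PRMT6 has been reported to repress, CDKN1A, CDKN1B, CDKN2A and THBS1 are given here. With each siRNA 3 of these 4 rose and 0 fell, with medians of 0.62 (siFOXN3-1) and 0.41 (siFOXN3-2), where 19.3% of all tested genes were higher with siFOXN3-1 and 24.1% with siFOXN3-2. CDKN1A, the p21 inhibitor of the cell cycle, had 95.7, 103 and 102 FPKM after siFOXN3-1 and 89.0, 86.8 and 80.9 FPKM after siFOXN3-2, against 30.3, 29.6 and 31.2 FPKM with siControl. It rose by 1.69 with siFOXN3-1 and 1.47 with siFOXN3-2 on the log2 scale (limma adjusted p = 9.64e-09 and 3.15e-08), and the 3 groups did not overlap.

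CDKN1B, the p27 inhibitor, averaged 55.8 FPKM with siFOXN3-1 and 45.9 FPKM with siFOXN3-2, against 40.3 FPKM with siControl (log2 fold change 0.46 with siFOXN3-1 and 0.18 with siFOXN3-2), and rose with both, although the siFOXN3-2 call was lost with quantile normalization, without siControl replicate 2 and from siFOXN3-2 replicate 1 alone. THBS1, an inhibitor of angiogenesis, averaged 19.84 FPKM with siFOXN3-1 and 18.01 FPKM with siFOXN3-2, against 11.14 FPKM with siControl, and rose likewise (0.78 with siFOXN3-1 and 0.65 with siFOXN3-2). CDKN2A, the p16 gene, averaged 46.7 FPKM with siFOXN3-1 and 47.2 FPKM with siFOXN3-2, against 52.75 FPKM with siControl, and passed the test with neither siRNA. The list was drawn up with results of these data known and gives no independent evidence on direction.

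The pattern most like that of PRMT6 was sought over all tested genes with a symbol, as the root mean square difference over the 9 samples of log2(FPKM + 1) centred on each gene's siControl mean. The 6 nearest genes were LRRC45 (0.141), HPS6 (0.145), C21orf58 (0.167), SPSB2 (0.167), LINC02870 (0.181) and CENPB (0.193). LRRC45, a centrosomal linker protein, averaged 1.48 FPKM with siFOXN3-1 and 2.03 FPKM with siFOXN3-2, against 7.90 FPKM with siControl. HPS6, a subunit of a lysosome-related organelle complex, averaged 1.90 FPKM with siFOXN3-1 and 2.99 FPKM with siFOXN3-2, against 12.1 FPKM with siControl.

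CENPB, a centromere DNA-binding protein, averaged 11.4 FPKM with siFOXN3-1 and 14.1 FPKM with siFOXN3-2, against 40.5 FPKM with siControl. HPS6 and CENPB have 1 coding exon, as PRMT6 has, whereas LRRC45 has up to 17, C21orf58 up to 8 and SPSB2 up to 2. SPSB2, an adaptor of a ubiquitin ligase, averaged 2.77 FPKM with siFOXN3-1 and 4.56 FPKM with siFOXN3-2, against 13.8 FPKM with siControl. C21orf58 averaged 0.879 FPKM with siFOXN3-1 and 1.28 FPKM with siFOXN3-2, against 6.34 FPKM with siControl. The noncoding LINC02870 averaged 0.187 FPKM with siFOXN3-1 and 0.294 FPKM with siFOXN3-2, against 3.27 FPKM with siControl. All 6 lay below siControl in every FOXN3 siRNA sample, which their choice by likeness to PRMT6 largely fixes.

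**Figure D4:**
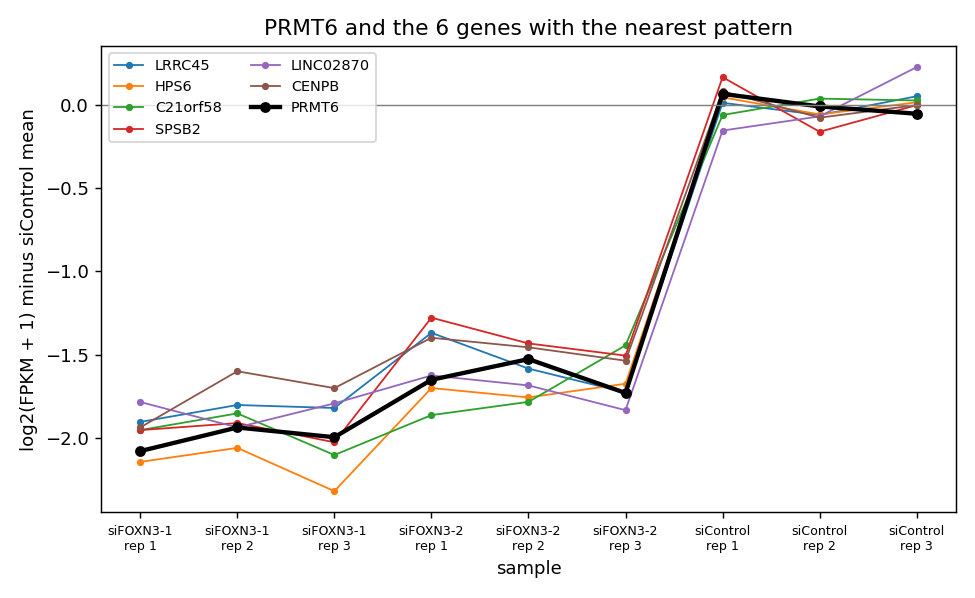
Log2(FPKM + 1) of PRMT6 (black) and of the 6 genes nearest to it, each minus its own siControl mean, in the 9 samples, with the siFOXN3-1 and siFOXN3-2 samples left of siControl. PRMT6 lies near -2.004 with siFOXN3-1 and -1.64 with siFOXN3-2, and the other lines run beside it.

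Genes with 1 coding exon in every coding transcript were compared as a class because PRMT6 is one. Of 499 tested, 22.0% were called higher and 52.5% lower with siFOXN3-1, with a median log2 fold change of -0.27, and 25.5% higher and 48.7% lower with siFOXN3-2, with a median of -0.21. Among 10188 genes with more coding exons, 18.9% were higher and 47.3% lower with siFOXN3-1 (median -0.17), and 24.6% higher and 40.5% lower with siFOXN3-2 (median -0.10). Without histone genes the class held 465 genes, of which 19.1% were higher and 55.9% lower with siFOXN3-1 (median -0.33) and 22.6% higher and 51.6% lower with siFOXN3-2 (median -0.25). The differences between the classes were not tested, nor was the part of exon number in the PRMT6 values.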

How the data were processed

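FPKM per gene were deposited by the authors as 1 table of 34789 genes by 9 samples, per the submitters' processing notes with StringTie 1.3.3b, HISAT2 2.1.0 and fastp 0.14.0 and the build GRCh38. The sources used here give neither the annotation release nor the counting options. Polyadenylated RNA went through an unstranded kit (NEBNext Ultra RNA), per the labels' protocols. Groups follow the sample titles.

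Symbols came from an Ensembl name table and matched 34435 genes, while 354 had none. Genes averaging at least 1 FPKM (12707 tested, 22082 left out) entered a limma 3.58.1 fit (R 4.3.3) of log2(FPKM + 1), with 3 groups, trended moderation, 6 residual degrees of freedom, 4.02 prior ones, two-sided tests, Benjamini-Hochberg adjustment over all tested genes and a threshold of 0.05. The members and lists were chosen with earlier results of these data known. Genes named are the members, up to 4 genes per list with the smallest adjusted p, the listed genes reported as repressed by PRMT6, the 6 genes nearest to PRMT6 and FOXN3. Some genes of the lists are not reported here, and the counts and medians of the lists leave them out. CNOT7, CLNS1A, EWSR1 and TAF15 were named after their values were seen.

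FPKM steps gave the depth and whole reads. Values worth up to 50 reads were whole within 0.05 reads for 98.2 to 98.3% of cases, and 12377 tested genes (97.4%) had whole reads in all samples. Voom on these reads called 2453 genes higher and 5747 lower with siFOXN3-1, and 3044 higher and 4980 lower with siFOXN3-2. Exon structure was taken from GENCODE 29. The fit was tested on simulated data with 100 genes changed by 0.5 and 100 by 1 on the log2 scale, balanced in direction. Of the calls, 4.74% were false with siFOXN3-1 against siControl, 6.45% with siFOXN3-2 against siControl and 3.78% between the siRNAs. In the data themselves most genes were called and more fell than rose against siControl, a setting that the simulation did not cover. Alternatives were the pseudocount (0.1), no filter or a mean of 5 FPKM, median ratio scaling, quantile normalization, only the compared groups, the replicate number as a block and each sample left out. Added after seeing the data were voom on the recovered reads, siFOXN3-2 replicate 1 alone and, for levels, PRMT6 reads over all its annotated exons. Figures used Python 3.11.15, pandas 2.3.3, numpy 2.4.6 and matplotlib 3.10.9.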

Additional observations from a re-analysis of the deposited data

Results flagged for a closer look

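Of 44 members, cell markers and other named genes, 21 differed between the siRNAs in the contrast of siFOXN3-2 with siFOXN3-1 (log2 fold change with a limma adjusted p under the threshold of 0.05), where 36.1% of all tested genes did. The 6 genes nearest to PRMT6 are left out because their choice used this contrast. The genes kept were not chosen neutrally either. Many were picked for clear changes against siControl with either siRNA. CNOT7, CLNS1A, EWSR1 and TAF15 were added with their values known. Such choices may raise the number that differ between the siRNAs, so this number is not read against the share of all tested genes. Values are given without explanation. Among the PRMT genes, those that differed were PRMT6 (0.37), PRMT9 (0.35), PRMT7 (0.24) and PRMT2 (0.18), all higher with siFOXN3-2.

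Among partners, readers, cofactor and other methylarginine genes, the higher ones with siFOXN3-2 were MAT2B (0.60), NDUFAF7 (0.40), WDR77 (0.37), JMJD6 (0.26), DDAH1 (0.21) and RIOK1 (0.19). AHCYL2 (-0.45) and TDRD7 (-0.36) were lower. Among substrates, FEN1 (0.42) was higher and HNRNPA2B1 (-1.02) was lower. Among the 2 lists tied to PRMT6, MEN1 (0.43) was higher, and KDM6A (-0.27), CDKN1B (-0.28) and CDKN1A (-0.23) were lower. The cell markers KRT8 (-0.51), KRT18 (-0.42) and VIM (-0.24) were lower, VIM no longer past the threshold without siFOXN3-1 replicate 3 or siFOXN3-2 replicate 1. The directions against siControl were opposite for MAT2B, with -0.23 for siFOXN3-1 and 0.37 for siFOXN3-2, and for KRT8, with 0.18 for siFOXN3-1 and -0.33 for siFOXN3-2, all past the threshold.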

How the results depend on the processing

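PRMT2 and PRMT7 were below siControl with both siRNAs under every setting in which they were tested. Counts that moved by over 1.5 times were these. With a mean of at least 5 FPKM, which leaves 4 members, 2930 genes and 2 members were lower with siFOXN3-1, 2475 genes and 1 member with siFOXN3-2, and 1 member was higher with siFOXN3-2 than with siFOXN3-1. Median ratio scaling gave 3979 genes and 1 member higher, 3 members lower and 18 list genes lower with siFOXN3-1, and 2 members lower with siFOXN3-2. Between the siRNAs it gave 1942 genes, 2 members and 9 list genes higher and 17 list genes lower. Quantile normalization gave 3 members lower with siFOXN3-1, and 2075 genes, 2 members and 10 list genes higher between the siRNAs. Only the compared groups gave 2 members higher between the siRNAs. From siFOXN3-2 replicate 1 alone, 1850 genes, 2 members and 9 list genes were higher and 856 genes lower than with siFOXN3-1. Causes of these moves, other than fewer genes or samples, were not tested.

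Leaving out 1 sample, siFOXN3-1 gave 2201 to 2328 genes higher, 5303 to 5546 lower and 3 to 5 members lower (3 without siControl replicate 1), with 18 to 22 list genes higher and 26 to 31 lower. siFOXN3-2 gave 2747 to 2937 genes higher, 4477 to 4813 lower, 3 to 5 members lower, and 19 to 24 list genes higher and 28 to 31 lower. Between the siRNAs 2323 to 3051 genes were higher, 992 to 1242 lower and 2 to 4 members higher (2 without siFOXN3-1 replicate 1 or 2), with 12 to 17 list genes higher and 8 to 10 lower.

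Signs turned in these values. Under median ratio scaling, siFOXN3-1 gave NDUFAF7 0.12, PRMT1 0.15, CARM1 0.18 and CDKN2A 0.0283, siFOXN3-2 gave PRMT1 0.0168, VIM 0.0897 and KRT18 0.0237, and the contrast of the siRNAs gave CARM1 -0.0313. Under quantile normalization, siFOXN3-1 gave NDUFAF7 0.13, HNRNPA2B1 -0.12, KRT18 -0.0029 and PRMT3 0.0163, siFOXN3-2 gave CARM1 -0.0194, and the contrast gave CARM1 -0.0146. With 1 sample left out, CARM1 with siFOXN3-2 ranged over -0.0162 to 0.102 (below 0 without siControl replicate 1 or siFOXN3-2 replicate 1) and VIM over -0.0711 to 0.0168 (above 0 without the same samples). Between the siRNAs PRMT1 ranged over -0.0871 to 0.0190 (above 0 without siFOXN3-1 replicate 3) and PRMT3 over -0.109 to 0.00634 (above 0 without siFOXN3-2 replicate 1). From siFOXN3-2 replicate 1 alone PRMT5 was 0.00617, and PRMT1 between the siRNAs was 0.00623.

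Same-numbered samples showed no shared deviation: their deviations from the group means correlated at -0.28 to 0.05 and those of others at -0.16 to 0.27. Deviations from group means constrain one another, so these values cannot show whether the samples were paired. With the replicate block, 2240 genes were higher and 5428 lower with siFOXN3-1, 2811 higher and 4611 lower with siFOXN3-2, 5 and 4 members were lower, and 3 members were higher (PRMT2 no longer, adjusted p = 0.0745) between the siRNAs. PRMT6 rested on 59 to 106 reads in FOXN3 siRNA samples, so counting error alone is 10.4 to 12.7% of its level there.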
